A study of Rattus norvegicus with 4 samples.

Results

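Ucp1 and Ppargc1a, 2 of the 26313 genes measured, were followed across rat aorta (AO) and small mesenteric arteries (MA). They were selected on being genes of brown fat thermogenesis and with their RPKM in AO and MA already known, so the difference between AO and MA is given as a description. In the data they are listed as ENSRNOG00000003580 (Ucp1) and ENSRNOG00000004473 (Ppargc1a). RNA-Seq was done on 4 samples from adult male Sprague–Dawley rats of 12 weeks, with no treatment and no genetic change stated for any of them. The 2 AO samples (AO1 and AO2) were thoracic aortas and the 2 MA samples (MA1 and MA2) were mesenteric arterial arcades without the superior mesenteric artery. One rat gave both AO1 and MA1, and AO2 and MA2 were each taken from a different animal, so there were 3 rats in all. The arcades were cleaned of fat before the RNA was extracted, and for the aortas the methods do not name such a step, though AO2 is said to have been handled in a similar way. The sources name no antibody, sort or enrichment for a cell type, so each value is that of a whole piece of artery.

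Ucp1 encodes uncoupling protein 1, a carrier of the inner mitochondrial membrane that lets protons back into the matrix without ATP synthesis, so that fuel is burned to heat. It is the defining gene of brown and beige adipocytes. Ppargc1a encodes PGC-1α, a transcriptional coactivator that docks on nuclear receptors such as the PPARs and on other factors and drives mitochondrial biogenesis. In brown fat, noradrenaline acts on β-adrenergic receptors, cAMP rises, and the transcription of both genes is switched on. Ppargc1a is also used in heart, skeletal muscle, kidney and brain, while Ucp1 is largely restricted to thermogenic fat. The fat around the thoracic aorta of rodents resembles brown fat, and that around mesenteric arteries resembles white fat.

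The bases just before the start of each gene are shown because cAMP signaling is known to act on both genes. They are the 250 bases upstream of the start in the RefSeq annotation of GRCr8, a later build than that of the reads, at chr19:41721422-41721671 on the minus strand for Ucp1 and chr14:63634058-63634307 on the plus strand for Ppargc1a. Capitals mark the motifs found among TGACG (the half-site of the cAMP response element), AGGTCA (the half-site of nuclear receptors), TATAAA (the TATA box) and CCAAT, searched on both strands.
Ucp1: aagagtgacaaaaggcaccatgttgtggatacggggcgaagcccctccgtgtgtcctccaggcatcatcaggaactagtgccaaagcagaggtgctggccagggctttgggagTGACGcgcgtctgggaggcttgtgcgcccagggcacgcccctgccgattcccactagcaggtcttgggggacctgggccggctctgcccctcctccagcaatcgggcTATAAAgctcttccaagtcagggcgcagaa
Ppargc1a: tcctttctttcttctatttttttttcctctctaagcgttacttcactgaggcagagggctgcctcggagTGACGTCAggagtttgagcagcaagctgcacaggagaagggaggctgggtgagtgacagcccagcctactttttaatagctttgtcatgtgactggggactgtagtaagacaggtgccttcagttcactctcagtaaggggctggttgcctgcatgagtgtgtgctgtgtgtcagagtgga
In the Ucp1 window, TGACG begins 137 bases before the start and TATAAA 30 bases before it. The Ppargc1a window holds TGACG on both strands, beginning 181 and 178 bases before the start, where the 2 matches overlap and form the full palindromic element, and it holds no TATAAA. Neither window holds AGGTCA or CCAAT. Of the 33469 windows of this length in the RefSeq table, 18.2% hold TGACG, 12.9% TATAAA, 14.1% AGGTCA and 34.0% CCAAT on either strand. The GC content is 62% in the Ucp1 window and 50.4% in the Ppargc1a window, against a median of 51.2%. RefSeq lists 1 transcript for Ucp1 and 11 for Ppargc1a, and the window shown for Ppargc1a lies before only 1 of its possible starts. These are matches of letters, and no binding was measured.

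Values were deposited as RPKM, in which the reads are normalized by gene length and library size. Within a sample, each further read raises the RPKM of a gene by the same amount, and so the whole reads, the library sizes and the length taken for each gene could be solved from the values. The library sizes lay between 83311442 and 90305293 reads, of which 72523713 to 82448842 per sample fell on genes. A recovered read need not be 1 mapped fragment. Reads scaled by median-of-ratios factors are called scaled reads here, with factors from 0.815 to 1.18. The length behind the RPKM was 7831 bp for Ucp1 and 90993 bp for Ppargc1a. The spans of these genes, introns included, are 8072 bp and 655711 bp in GRCr8. The methods of the study describe normalization by mRNA length, while the length found for Ucp1 is close to its whole span, so the RPKM given here are those of the deposited lists and can differ from RPKM per length of mRNA. RPKM of the 2 genes therefore do not compare the amounts of their mRNAs.

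Ucp1 mRNA was abundant in both AO samples and close to absent in both MA samples. AO1 had an RPKM of 128.1 and AO2 one of 113.2, while MA1 was at 0.058 and MA2 at 0.063. The AO samples had 90591 and 77454 reads on the gene, while MA1 had 38 (95% Poisson interval 26.9 to 52.2) and MA2 had 44 (32.0 to 59.1). These intervals cover counting error only and take each recovered read as independent. The libraries shared a single lane, and whether the few MA reads came from the MA samples themselves was not tested. The MA values and the ratios of AO over MA below carry this limit. The groups did not overlap, and the AO samples lay far above the MA samples. In bulk tissue, fewer cells of a type and less RNA per cell cannot be told apart.

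As a share of all reads on genes, Ucp1 took 1099 of every 1000000 reads (RPM) in AO1 and 976 in AO2. In MA1 it took 0.524 RPM and in MA2 0.598. By reads, Ucp1 ranked 54 of 18989 genes above 0 in AO1 and 71 of 19001 in AO2. In MA1 its rank was 15179 of 19212 and in MA2 15302 of 19449. By RPKM, Ucp1 ranked 234 in AO1 and 280 in AO2, while 22.8% of the genes above 0 lay below it in MA1 and 23.7% in MA2. Ucp1 mRNA thus stood near the top of the genes of the aorta libraries and among the lower ones detected in the mesenteric libraries.

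The mean RPKM of Ucp1 was 120.7 ± 10.5 (SD, n = 2) in AO and 0.0607 ± 0.0035 (SD, n = 2) in MA. In scaled reads, the smallest of the 4 ratios between an AO and an MA sample was 2315, for AO2 over MA2 (95% counting interval 1724 to 3187). The largest was 3402, for AO1 over MA1, the pair from the same rat (2478 to 4807). With the RPKM as deposited these ratios were 1792 and 2199. Against this, AO1 and AO2 were 1.29-fold apart (1.27 to 1.30), and MA1 and MA2 were 1.14-fold apart, with an interval of 0.723 to 1.81 that spans 1. On the log2(scaled RPKM + 0.5) scale, which understates the change of genes with low values, the difference of AO minus MA was 8.03. On scaled reads with no pseudocount it was 11.5, the largest among the 15685 genes that had 10 reads or more in each of the samples.

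**Figure D1:**
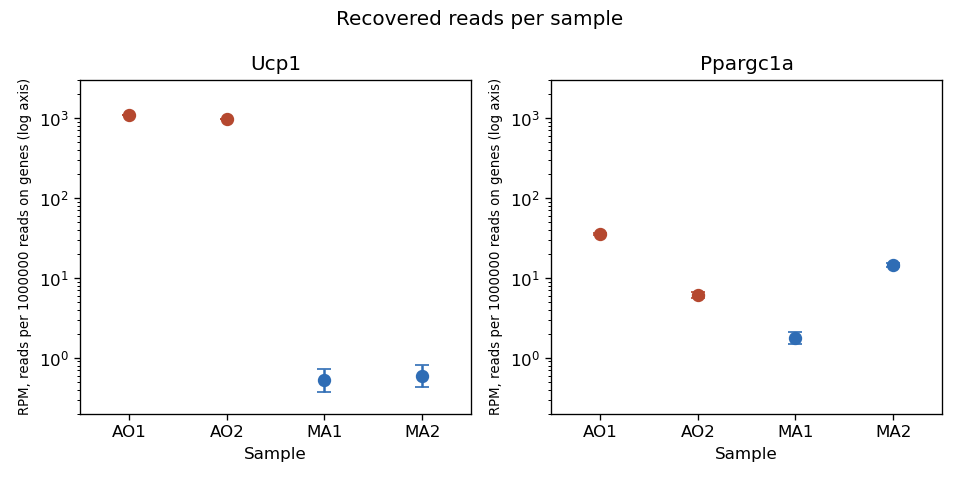
Reads per 1000000 reads on genes (RPM, log axis) for Ucp1 and Ppargc1a in each of the 4 samples, AO in red and MA in blue, with exact 95% binomial intervals for counting error. Ucp1 lies at 976 and 1099 in AO against 0.524 and 0.598 in MA, while for Ppargc1a MA2, at 14.7, lies above AO2, at 6.12.

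No test of AO against MA is given for either gene, since both were picked with this contrast known, and 2 samples against 2 cannot give an exact two-sided permutation p below 0.33. As a background for the contrast, limma called 488 of 7203 tested genes (6.77%) more than 2-fold higher in AO and 67 (0.93%) higher in MA at an adjusted p of at most 0.05. With the RPKM as deposited, where the median gene lay at -0.37 on the log2 scale (AO minus MA) and not at 0.05, the numbers were 260 and 170. Of the 2 genes, only Ucp1 entered this fit. Ppargc1a did not reach 1 RPKM in any sample and was left out of it by the filter of at least 1 RPKM in at least 2 samples. That filter depends on the length taken for a gene as well as on its reads. The length was 90993 bp for Ppargc1a, against a median of 15450 bp for genes with at least 10 reads in all. Among the same 15685 genes, both AO samples lay above both MA samples in 26.8%, and both MA samples above both AO samples in 26.3%. In the other 47.0%, Ppargc1a among them, the groups overlapped.

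Ppargc1a mRNA did not follow Ucp1. AO1 had the highest RPKM at 0.358 and AO2 was at 0.0611, while MA1 had the lowest at 0.0169 and MA2 was at 0.133. These values rest on 2939 and 486 reads for the AO samples and on 128 and 1078 reads for MA1 and MA2. The highest and the lowest sample came from the same rat, and the groups overlapped, with MA2 above AO2.

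On the RPM scale, Ppargc1a took 35.6 in AO1 (exact 95% binomial interval 34.4 to 37.0) and 6.12 in AO2 (5.59 to 6.69). In MA1 it took 1.76 (1.47 to 2.10) and in MA2 14.7 (13.8 to 15.6). None of the 4 intervals overlapped another, and the order of the samples was AO1, MA2, AO2, MA1. The intervals take each recovered read as independent, and would be too narrow if 1 fragment gave more than 1 read. By reads, Ppargc1a ranked 3062 and 10128 among the genes of AO1 and AO2, and 13538 and 8192 among those of MA1 and MA2.

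The mean RPKM of Ppargc1a was 0.209 ± 0.210 (SD, n = 2) in AO and 0.0750 ± 0.0822 (SD, n = 2) in MA. In both tissues the SD was as large as the mean, and the difference between the tissues was smaller than the SD in AO. In scaled reads, AO1 was 32.8-fold above MA1 (95% counting interval 27.4 to 39.4), 3.94-fold above MA2 (3.67 to 4.23) and AO2 was 4.93-fold above MA1 (4.05 to 6.04). The fourth ratio had the other direction, with MA2 1.69-fold above AO2 (1.51 to 1.88). With the RPKM as deposited, AO1 was 21.2-fold above MA1 and 2.69-fold above MA2, AO2 was 3.62-fold above MA1 and MA2 was 2.18-fold above AO2. The difference of AO minus MA was 0.39 on the log2(scaled RPKM + 0.5) scale and 2.14 on scaled reads with no pseudocount. Without AO1 it fell to 0.02 and 0.77, and without MA1 to 0.26 and 0.61. Without AO2 it rose to 0.76 and 3.51, and without MA2 to 0.52 and 3.67.

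The 2 genes also differed in how far replicates of a tissue lay apart. Ppargc1a was 6.65-fold higher in AO1 than in AO2, and of the 15685 genes 86 (0.548%) were at least as far apart in AO. It was 8.31-fold higher in MA2 than in MA1, and 95 genes (0.606%) were at least as far apart in MA. The median gene was 1.21-fold apart in AO and 1.26-fold in MA. For Ucp1, 40.1% of the genes were at least as far apart between the AO samples and 68.5% between the MA samples. Both ratios at once were as far from 1 as those of Ppargc1a in 8 genes, itself included, and all 8 were higher in AO1 than in AO2 and higher in MA2 than in MA1. Which rat, dissection or library the difference came with cannot be told apart from 1 sample each. The paper reports some skeletal myogenic factors in MA2 alone, very weakly, and names slight contamination by skeletal muscle as the likely reason. Whether that bears on Ppargc1a in MA2 was not tested.

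**Figure D2:**
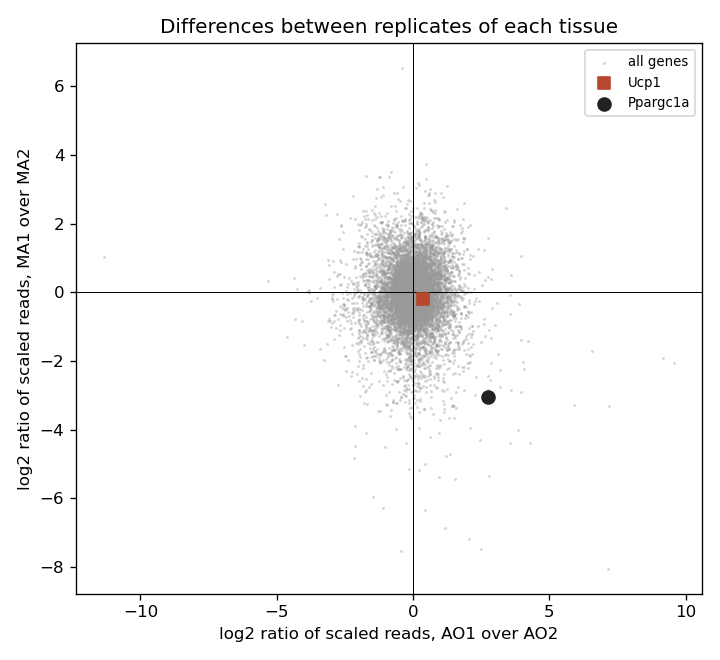
Each point is 1 of 15685 genes that had 10 reads or more in each of the samples, with the log2 ratio of scaled reads of AO1 over AO2 on the x axis and of MA1 over MA2 on the y axis. Ucp1 lies near the origin at 0.36 and -0.19, and Ppargc1a lies at the edge of the cloud at 2.73 and -3.06.

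The reads on Ucp1 and on Ppargc1a were therefore in very different proportions in the 4 samples. There were 30.8 Ucp1 reads for each Ppargc1a read in AO1 and 159 in AO2. In MA1 there were 0.297 Ucp1 reads per Ppargc1a read, and in MA2 0.0408. The proportion in AO2 was higher than in AO1 although AO2 had fewer reads than AO1 on either gene. These proportions need no scaling, but they are not corrected for the lengths of the mRNAs. Markers of adipocytes, smooth muscle and other cells of the arterial wall are not set beside these values here, since no table used here pairs the other identifiers with symbols, and their part in the result was not tested.

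Among the tested genes, the one whose profile over the 4 samples lay nearest to that of Ucp1 was ENSRNOG00000046239. As deposited, AO1 and AO2 had 90.6 and 73.5 RPKM of it, and MA1 and MA2 had 0.0429 and 0.0589. The Euclidean distance between the centred profiles of log2(scaled RPKM + 0.5) was 0.54, while the profile of Ucp1 itself lay 8.03 from its mean. Both genes passed the filter through AO alone, and their MA values lay below the pseudocount. The match thus rests mostly on their AO values. The nearest to Ppargc1a was ENSRNOG00000048652, at a distance of 0.125, and the next gene lay almost as near at 0.126. As deposited, it had 4.81 and 3.48 RPKM in the AO samples and 3.93 and 4.85 RPKM in MA1 and MA2. Distances were taken after scaling, which can change the order of the samples. The profile of Ppargc1a itself lay 0.68 from its mean on this scale, on which RPKM below the pseudocount are drawn together, so genes with small differences lie near it.

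**Figure D3:**
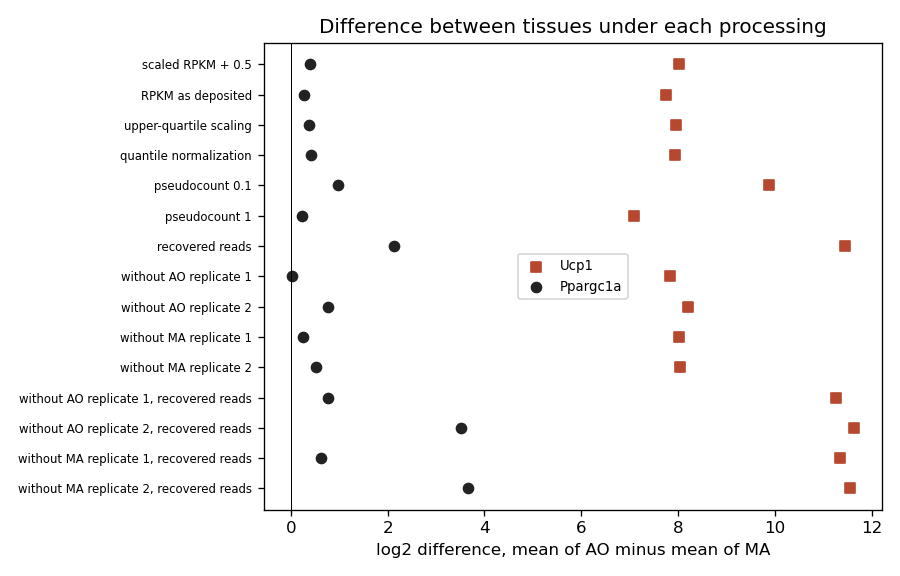
Difference between the mean of AO and the mean of MA on the log2 scale for Ucp1 (squares) and Ppargc1a (circles) under each processing, named on the y axis. All values are above 0, from 7.10 to 11.6 for Ucp1 and from 0.02 to 3.67 for Ppargc1a.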

How the data were processed

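RNA-Seq libraries (TruSeq, paired-end reads, a single lane) were made from 2 AO and 2 MA samples. By the methods of the study, the authors aligned the reads to the Ensembl rat genome (Rnor5, release 72) with TopHat, allowing 2 mismatches per 30 bp segment and at most 2 alignments per read. Read counts of each gene were then normalized by its length and by the size of the library. The deposited values are the authors' RPKM for 26313 identifiers per sample. The study's own test used read counts, and as only RPKM were used here, limma took its place.

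Ucp1, Ppargc1a, the genes sought and the tests were chosen with earlier results of these data known. The 2 symbols came with that choice. Of 47357 genes in the RefSeq table of GRCr8, 0 carry an Ensembl identifier, so the lists of brown fat, PGC-1, uncoupling protein and cell type genes set for this work were not applied. Named genes are the 2 genes and the gene nearest to each by Euclidean distance over the 4 centred profiles.

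Reads, library sizes and lengths were solved from the RPKM steps (Python 3.11.15, numpy 2.4.6, numba 0.67.0), taking the smallest length at which all samples gave whole reads, so reads that share a divisor in all samples come out too few. All 20747 genes above 0 came out within 0.0046 of a whole read, a tolerance partly set by the method. The method was checked on data simulated with the recovered lengths. There, all counts came out exactly for 96.5% of the genes with at least 100 reads over the samples, so not every gene is solved without error. Scaling used median-of-ratios factors (0.789 to 1.22), and analyses the log2(scaled RPKM + 0.5). All genes with at least 1 RPKM in at least 2 samples were fitted with limma 3.58.1 in R 4.3.3 (trend, no block), with Benjamini-Hochberg adjustment, and called at an adjusted p of at most 0.05 and more than 2-fold. With 2 samples per tissue from 3 rats, p-values rest on the spread between these samples, with variances drawn toward a trend over all fitted genes. The fit takes AO1 and MA1 as independent, although they came from the same rat. Alternatives were the scaling, the pseudocount, the filter, the trend, the replicate block, recovered reads and leaving out each sample. Leaving out samples on recovered reads was added after the data were seen.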

Additional observations from a re-analysis of the deposited data

How the results depend on the processing

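Under each of the 42 alternatives run for the 2 genes and for their ratio, the value stayed higher in AO than in MA, but for Ppargc1a the groups overlap and the sign of a difference of means says little. The difference of Ucp1 (8.03) was 7.75 with the RPKM as deposited, 9.89 with a pseudocount of 0.1, 7.10 with 1 and 11.45 on recovered reads. It ranged from 7.85 to 8.21 with 1 sample left out and on recovered reads it was 11.27 without AO1, 11.64 without AO2, 11.36 without MA1 and 11.55 without MA2. For Ppargc1a (0.39) it was 0.96 with a pseudocount of 0.1 and 2.14 on recovered reads, and with 1 sample left out it ranged from 0.02 to 0.76, or on recovered reads 0.77 without AO1, 3.51 without AO2, 0.61 without MA1 and 3.67 without MA2. The log2 ratio of Ucp1 to Ppargc1a, AO minus MA (7.64), was 8.93 with a pseudocount of 0.1, 6.87 with 1 and 9.31 on recovered reads. It ranged from 7.44 to 7.83 with 1 sample left out, or on recovered reads 10.50 without AO1, 8.13 without AO2, 10.75 without MA1 and 7.88 without MA2. A pseudocount pulls low values together by construction.

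Limma called 488 genes higher in AO and 67 higher in MA, and with the RPKM as deposited it called 260 and 170. Each setting was counted on its own, so these numbers do not tell how many genes the settings share. With a pseudocount of 1 the numbers were 429 and 43. With a filter of at least 0.1 RPKM in at least 2 samples they were 329 (2.38%) and 39 (0.28%) of 13811 genes tested, so the shares depend on the filter. With no filter 0 were called in either direction, although 3434 genes had an unadjusted p of 0.05 or less. Without AO1 the numbers were 21 and 1, without AO2 32 and 1, and without MA1 146 and 71. Without MA2 they were 0 and 0, although 1460 genes had an unadjusted p of 0.05 or less. In these fits the lone sample is assumed to vary like those of the other tissue. Limma-voom on recovered reads called 488 and 91. The replicate block called 456 and 107. By the study only AO1 and MA1 share a rat, and AO1 minus AO2 and MA1 minus MA2 had a correlation of 0.018 over 7203 genes, so the block rests on the numbers alone. For all of these numbers the cause was not tested. The alternatives for the gene lists were not run. With 38 and 44 reads of Ucp1 in MA, MA2 over MA1 was 1.14 with a counting interval of 0.723 to 1.81. This interval spans 1, so the counts do not tell the MA samples apart.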

Other observations

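Ordered by scaled reads, Ucp1 ran AO1, AO2, MA2, MA1, an order shared by 1081 of the 15685 genes that had 10 reads or more in each of the samples (6.89%), the third most frequent of the 24 possible orders. Ppargc1a ran AO1, MA2, AO2, MA1, an order shared by 435 genes (2.77%), which is 17 in frequency. More than 2-fold higher in both AO1 than AO2 and MA2 than MA1 were 172 of these genes (1.10%), Ppargc1a among them. In the other combinations of directions, 117 genes were higher in AO1 and MA1, 165 in AO2 and MA2, and 167 in AO2 and MA1. Since AO1 and MA1 are from 1 rat and AO2 and MA2 from 2 others, the 172 genes were higher in the AO and lower in the MA of the rat that gave both than in the same tissue of another rat.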
